A study of Mus musculus with 16 samples.

Results

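A set of 10 genes that mature pancreatic beta cells normally keep off, the so-called beta cell disallowed genes, were followed in islets of *db/db* mice cultured with adjudin or DMSO: *Ldha*, *Slc16a1*, *Hk1*, *Hk2*, *Acot7*, *Oat*, *Rest*, *Cxcl12*, *Igfbp4* and *Maf*. They were taken by symbol from the deposited table, in which they make up 10 of 54532 genes, and all 10 were among the 16910 genes with enough counts to be tested. With adjudin, 6 of the 10 were expressed at a lower level than with DMSO at an adjusted p under 0.05 (*Ldha*, *Acot7*, *Oat*, *Cxcl12*, *Igfbp4* and *Maf*) and none was higher, where 3.07% of all tested genes were called lower, 2.17% higher and 5.24% in either direction. The falls were small, from 7.79% for *Igfbp4* to 19.4% for *Cxcl12*. The study itself picked several of these genes on these samples, so the count is not independent evidence of its direction. At p under 0.05, with no adjustment named, it also reported *Hk2* and *Slc16a1* as lower. Their unadjusted p in edgeR's test here were 0.00662 and 0.0204, so they missed only the adjusted threshold.

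Beta cells couple glucose to insulin secretion by burning nearly all pyruvate in the mitochondria, and a set of housekeeping-like genes that would short-circuit this coupling is repressed in them although most other tissues express it. Lactate dehydrogenase A and the monocarboxylate transporter encoded by *Slc16a1* would let beta cells make lactate or take up pyruvate and lactate from the blood, and the high-affinity hexokinases would let glucose enter glycolysis at low concentrations. Stromal, endothelial and immune cells of an islet preparation express many of these genes as part of their normal programme. In RNA of whole islets, a lower level can therefore come from fewer such cells or from less RNA per cell, and these cannot be told apart here.

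RNA was sequenced from islets of male BKS(D)-Leprdb/JOrlRj mice (*db/db*) aged 12 to 13 weeks, which carry a disrupted leptin receptor and become obese and diabetic. For 1 day, 8 samples were cultured with 10 µmol/l adjudin, a multifunctional drug studied as a reversible male contraceptive, and 8 with DMSO, the solvent. All 16 samples were *db/db* islets kept in medium with 11 mmol/l glucose, so no lean or untreated islets are part of the comparison, and 1 sample came from 1 to 2 mice. The labels number the samples as batches 1 to 8, each with 1 adjudin sample and 1 DMSO sample. They do not say what a batch is or whether its samples came from the same mice.

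The libraries held 24852862 to 34471164 counts with adjudin and 24190102 to 32675186 with DMSO. Islet hormones were abundant, with *Ins1* and *Ins2* taking 3.25% to 9.04% of the counts with adjudin and 3.02% to 10.3% with DMSO. Other cells were present in every sample: no marker of stromal, macrophage, endothelial, ductal or acinar cells was at 0 in any library. Batch 4 stood apart from the other batches, with the highest stromal and the lowest beta cell marker score among DMSO samples. Batch 7 had the lowest stromal and the highest beta cell score. The endothelial score was also highest in batch 4 (mean log2 CPM 5.95), but batch 5 (5.92) and batch 6 (5.71) lay close to it. Levels below are CPM, counts scaled to library size with TMM factors. Differences are log2 fold changes, adjudin over DMSO, from edgeR's quasi-likelihood test with batch as a term, with p values adjusted over all 16910 tested genes.

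Scaled by the gene length given in the deposited table, which need not be that of the expressed transcript, the members covered a wide span of levels in the DMSO samples. *Ldha* was the most abundant with 96.9 ± 11.8 CPM per kilobase (SD, n = 8), and 2.47% of tested genes lay above it. *Oat* with 35.1 ± 5.57 and *Igfbp4* with 33.8 ± 10.7 CPM per kilobase did not differ beyond their spread, and *Acot7* followed with 20.7 ± 2.13. The remaining members lay between 2.92 CPM per kilobase for *Slc16a1* and 6.25 for *Hk1*. Within this lower set *Hk1* and *Rest* (6.06 ± 1.60) overlapped, as did *Cxcl12* (4.59 ± 1.17) and *Hk2* (4.30 ± 0.640), and *Maf* (3.03 ± 0.581) and *Slc16a1* (2.92 ± 0.374). *Slc16a1* had the fewest counts, 258 to 476 per sample, and *Ldha* the most, 6622 to 12638.

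The promoter windows of 4 members are shown to place the members on the genome and to set the genes of lactate metabolism, *Ldha* and *Slc16a1*, beside *Acot7* and *Cxcl12*, which passed the test whichever batch was left out. Each window covers 250 bases before and 50 bases after an annotated start site in RefSeq (build GRCm38.p6), and 8 of the 10 members matched, with none for *Rest* and *Maf*. Capitals mark matches, on either strand, to 8 motifs searched. These were the TATA box TATAAA, the box named CCAAT, the GC box GGGCGG, the E-box CACGTG, the core ACGTG (which lies within every E-box searched), the AP-1 site TGACTCA and, as short pieces of the site bound by REST, the letters AGCACC and the letters GGACAGC.
Ldha, chr7:46845554-46845853, plus strand: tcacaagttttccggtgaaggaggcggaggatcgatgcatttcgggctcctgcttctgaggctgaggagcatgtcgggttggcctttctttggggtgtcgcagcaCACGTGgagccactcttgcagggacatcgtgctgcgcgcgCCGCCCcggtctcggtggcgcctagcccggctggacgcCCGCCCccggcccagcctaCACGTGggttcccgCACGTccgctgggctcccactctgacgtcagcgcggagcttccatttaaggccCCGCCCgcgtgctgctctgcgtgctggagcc
Slc16a1, chr3:104638414-104638713, plus strand: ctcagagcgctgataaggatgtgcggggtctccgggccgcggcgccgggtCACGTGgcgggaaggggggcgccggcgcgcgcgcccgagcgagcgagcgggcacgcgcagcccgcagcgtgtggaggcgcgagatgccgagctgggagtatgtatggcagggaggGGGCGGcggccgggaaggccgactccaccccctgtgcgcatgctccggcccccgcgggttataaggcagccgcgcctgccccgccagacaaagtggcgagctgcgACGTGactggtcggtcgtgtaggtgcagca
Acot7, chr4:152185358-152185657, plus strand: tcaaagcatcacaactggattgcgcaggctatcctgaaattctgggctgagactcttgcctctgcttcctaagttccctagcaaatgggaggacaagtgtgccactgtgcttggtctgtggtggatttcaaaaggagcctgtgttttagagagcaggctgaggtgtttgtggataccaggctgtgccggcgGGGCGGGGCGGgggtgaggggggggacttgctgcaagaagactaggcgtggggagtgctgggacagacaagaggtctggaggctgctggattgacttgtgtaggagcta
Cxcl12, chr6:117168285-117168584, plus strand: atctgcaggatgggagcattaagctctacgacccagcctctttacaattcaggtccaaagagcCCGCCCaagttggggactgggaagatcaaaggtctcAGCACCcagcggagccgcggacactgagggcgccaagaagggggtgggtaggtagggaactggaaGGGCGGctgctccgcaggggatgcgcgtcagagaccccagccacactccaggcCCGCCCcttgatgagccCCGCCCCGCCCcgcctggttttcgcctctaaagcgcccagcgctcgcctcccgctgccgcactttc

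*Ldha* had 2 copies of CACGTG, the E-box read by several basic helix-loop-helix factors, starting at -145 and -48 from the start site, and *Slc16a1* had 1 at -200. They were the only members of the 8 with this motif, in 2 of their 10 windows, and 7.15% of all 32851 promoter windows hold it. The core ACGTG, part of the element read by hypoxia-inducible factors, occurred in 5 of the 10 windows of these 8 members (*Ldha*, *Slc16a1*, the second window of *Hk1*, *Hk2* and *Oat*), against 19.6% of all windows. GGGCGG, a GC box, occurred in 6 of the 10 windows against 35.7% of all windows, with 5 matches at *Cxcl12*, and 2 overlapping ones at *Acot7* that start at -59 and -54. TATAAA was found at *Igfbp4* alone, at -28, against 13.6% of all windows. The piece AGCACC was found at *Hk2* and *Cxcl12* (16.2% of all windows), the piece GGACAGC at *Hk2* (6.56%) and the AP-1 site at no member (5.20%). CCAAT was found at *Hk2* and *Oat* (37.4% of all windows). A match describes the letters of these windows and does not show that a factor binds. The windows of *Ldha* and *Acot7* start from transcripts that begin 4329 and 7474 bases downstream of the first base of the gene in the deposited table, and *Ldha* and *Hk1* each had a further window, which held none of the motifs at *Ldha*.

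*Ldha*, on chromosome 7 (46841475 to 46855627, plus strand, mm10), encodes the subunit of lactate dehydrogenase that favours making lactate from pyruvate. Its level was 255, 283 and 332 CPM (lowest, median and highest) with adjudin, and 271, 320 and 384 CPM with DMSO. The groups overlapped, because batches differed by more than the treatment did, yet adjudin was lower than DMSO within all 8 batches, by least in batch 5 and by most in batch 3. edgeR gave a log2 fold change of -0.16 (SE 0.029, adjusted p = 0.00345). Among all tested genes, 3.15% were lower in all 8 batches. Of the pseudogenes named after *Ldha*, *Ldha-ps2* had the most counts, 0.248% of those of *Ldha*.

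Of the genes around *Ldha* in pyruvate and lactate metabolism, 1 of 12 passed the test: *Pcx*, pyruvate carboxylase, which feeds pyruvate into the citric acid cycle, was higher with adjudin (44.8 ± 7.21 CPM, against 41.1 ± 8.48 CPM with DMSO, log2 fold change 0.14, adjusted p = 0.0388). *Ldhb*, the other main lactate dehydrogenase subunit, had 10.2 ± 0.985 CPM with adjudin and 10.2 ± 0.596 CPM with DMSO, that is a log2 fold change of 0.005 at an adjusted p of 0.980. The most abundant gene of the list was *Bsg*, the chaperone of monocarboxylate transporters, at 547 ± 21.3 CPM with adjudin and 549 ± 30.6 CPM with DMSO. Counts per base of *Ldha* over *Ldhb* within a sample were 10.1, 12.9 and 17.2 (lowest, median and highest) with adjudin and 12.9, 14.5 and 17.6 with DMSO. The ratio was lower with adjudin in 7 of 8 batches, by -0.17 on the log2 scale (SD 0.181 over batches, p = 0.0156 by exact sign-flips of the batches, two-sided, adjusted p = 0.0208 over 4 ratios). Batches 2, 3 and 6 gave most of this difference, as the plot of ratios by batch shows, while batch 8 was slightly higher with adjudin.

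*Slc16a1*, on chromosome 3 (104638668 to 104658462, plus strand), encodes MCT1, the transporter that would admit circulating pyruvate and lactate. It had 9.53, 12.0 and 13.4 CPM (lowest, median and highest) with adjudin and 10.5, 12.8 and 15.1 CPM with DMSO. The differences split the batches: 5 of them were lower with adjudin (difference of -14.7% to -20.8%), batch 7 had nearly the same level in both, and batches 3 and 6 were higher with adjudin. Its log2 fold change of -0.16 had the widest error of the members (SE 0.061) and did not pass (adjusted p = 0.148). The lactate exporter gene *Slc16a3* had 27.2 ± 5.47 CPM with adjudin and 31.0 ± 7.59 CPM with DMSO (-0.19 on the log2 scale, adjusted p = 0.0825). The ratio of *Slc16a1* to *Slc16a3* differed by 0.03 on the log2 scale (SD 0.206 over batches, exact p = 0.859). It was lower with adjudin in 5 of 8 batches, and the mean difference was -0.04 without batch 3.

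**Figure D1:**
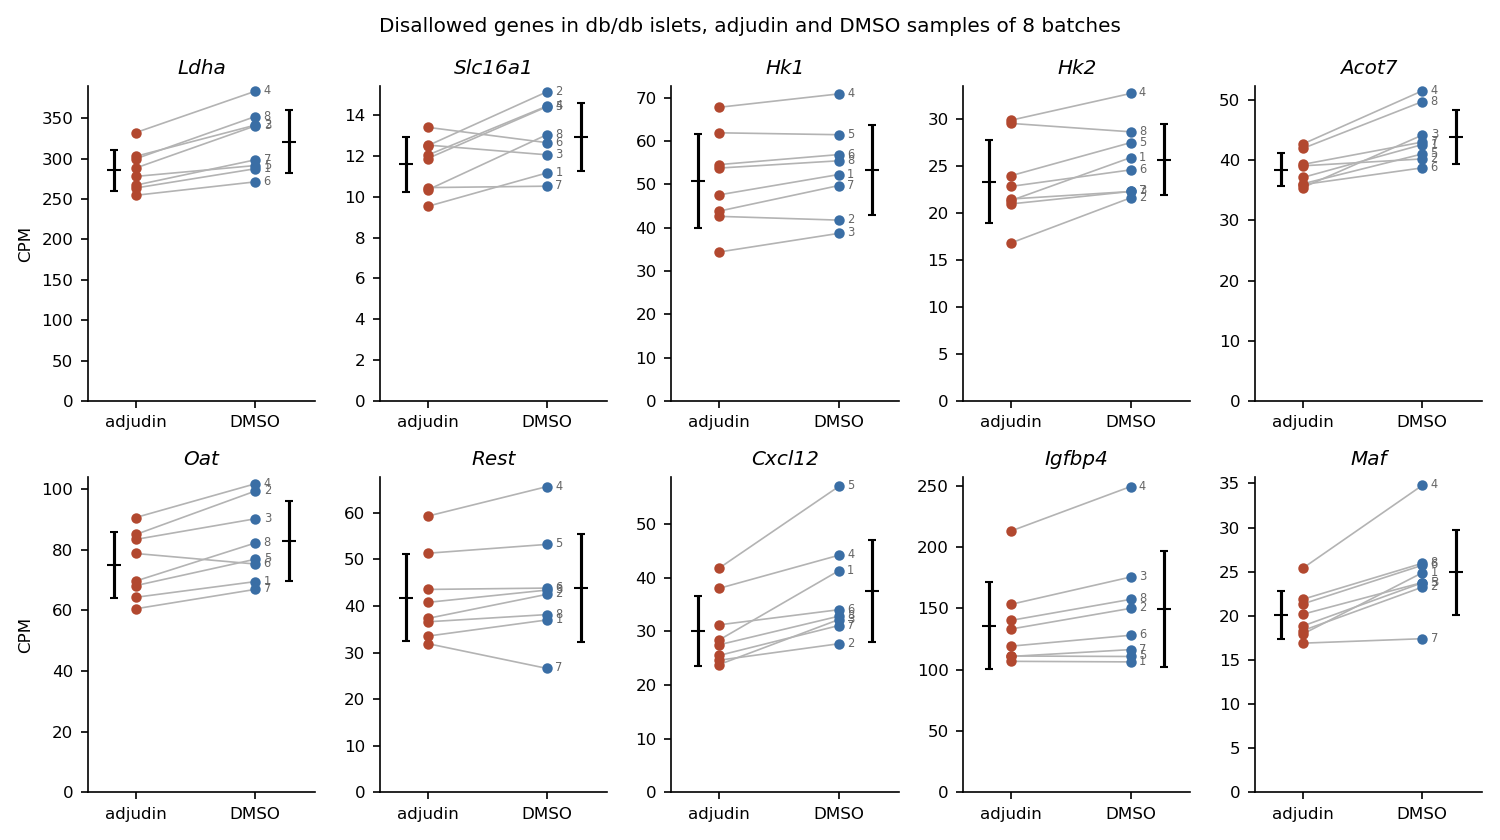
Level of each of the 10 members in CPM (vertical axes, from 0) in the 8 adjudin samples (left, red) and the 8 DMSO samples (right, blue). Grey lines join the samples of a batch, whose number stands at the right, and black bars give the mean ± SD. In *Ldha*, *Acot7*, *Cxcl12* and *Maf* all 8 lines lie lower at the adjudin end, while the groups overlap in every panel.

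Hexokinases I and II, encoded by *Hk1* on chromosome 10 and *Hk2* on chromosome 6, phosphorylate glucose with high affinity, also at low concentrations. *Hk1* had 34.4, 50.7 and 67.8 CPM (lowest, median and highest) with adjudin and 38.7, 53.8 and 70.9 CPM with DMSO. *Hk2* had 16.8, 22.1 and 29.8 CPM with adjudin and 21.6, 25.2 and 32.7 CPM with DMSO. Neither gene passed the test: *Hk1* had a log2 fold change of -0.08 (SE 0.032, adjusted p = 0.184) with 6 of 8 batches lower, and *Hk2* -0.14 (SE 0.046, adjusted p = 0.0825) with 7 of 8 lower. Batch 4 had the highest level of both genes in either treatment. Reads of the antisense gene *Hk1os*, counted separately, came to 0.531% of those of *Hk1*.

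Of the 7 genes listed around glucose phosphorylation 1 passed: *G6pc2*, the islet glucose-6-phosphatase, which undoes glucose phosphorylation and was also the most abundant of the list, was higher with adjudin (455 ± 102 CPM, against 409 ± 103 CPM with DMSO, log2 fold change 0.16, adjusted p = 0.0128).

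*Acot7*, on chromosome 4 (152178134 to 152271855, plus strand), encodes a cytosolic thioesterase that cleaves long-chain acyl-CoA, a lipid signal that amplifies insulin secretion. It had 35.4, 38.1 and 42.7 CPM (lowest, median and highest) with adjudin and 38.7, 42.8 and 51.5 CPM with DMSO. All 8 batches were lower with adjudin, batch 2 by -0.04 on the log2 scale and batch 3 by -0.32, and the highest DMSO samples, of batches 4 and 8, lay above every adjudin sample. This gave a log2 fold change of -0.19 (SE 0.036, adjusted p = 0.00562). Among 11 other genes of acyl-CoA handling, *Acsl4*, an acyl-CoA synthetase that prefers arachidonic acid, was lower with adjudin (99.3 ± 14.3 CPM, against 107 ± 16 CPM with DMSO, log2 fold change -0.11, adjusted p = 0.0288), and the other 10 did not pass. Of the 11, 5 had positive and 6 negative log2 fold changes.

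*Oat*, on chromosome 7 (132557478 to 132576398, minus strand), encodes ornithine aminotransferase, a mitochondrial enzyme that links ornithine to proline and glutamate. Its level was 60.5, 74.2 and 90.6 CPM (lowest, median and highest) with adjudin and 66.9, 79.5 and 102 CPM with DMSO. In 7 of 8 batches it was lower with adjudin, and in batch 6 it was 4.62% higher. Its log2 fold change of -0.14 passed (SE 0.033, adjusted p = 0.0218), and the call was lost without batch 2, 3, 4, 5 or 8, with an adjusted p of up to 0.0762. Of the 8 tested partners in ornithine and proline metabolism, *Odc1*, which makes polyamines from ornithine, was lower (103 ± 9.62 CPM, against 111 ± 13.0 CPM with DMSO, log2 fold change -0.10, adjusted p = 0.0316), and the others did not pass. The most abundant of them, *Glud1*, had 199 ± 11.3 CPM with adjudin and 203 ± 10.7 CPM with DMSO. In the deposited table the range of *Oat* overlaps that of *Fgfr2* on the same strand, whose own counts came to 11.1% of those of *Oat*, so reads from the shared stretch are uncertain.

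*Rest*, on chromosome 5, encodes the zinc-finger repressor that keeps neuronal genes off outside neurons and islets. It had 31.9, 39.0 and 59.2 CPM (lowest, median and highest) with adjudin and 26.6, 42.9 and 65.6 CPM with DMSO. In 7 of 8 batches it was lower with adjudin, by -0.01 to -0.19 on the log2 scale, and batch 7, with the lowest level of all in DMSO, was 20.04% higher. The log2 fold change of -0.06 did not pass (SE 0.042, adjusted p = 0.465), and without batch 7 it was -0.10 (adjusted p = 0.110). None of 6 cofactor genes passed either, the most abundant of which by CPM was *Ehmt2* (175 ± 18.9 CPM with adjudin and 169 ± 19.7 CPM with DMSO). Of 8 genes that REST silences elsewhere, 7 had positive log2 fold changes and 1 passed, *Gjd2*, which encodes the gap junction protein connexin 36 of beta cells (85 ± 15.4 CPM with adjudin, against 76.2 ± 15.7 CPM with DMSO, log2 fold change 0.16, adjusted p = 0.00982). *Scg3*, a granule protein gene and the most abundant of the list, gave 0.13 (adjusted p = 0.0646). Of all tested genes 48.6% had a negative log2 fold change and 2.17% were called higher. Beta cell markers were positive in 10 of 11 cases, and whether the values of these 8 genes followed *Rest* was not tested. None of 8 genes of DNA methylation, the mark that DNMT3A places on some disallowed genes, passed, and *Dnmt3a* had 135 ± 10.6 CPM with adjudin and 131 ± 9.31 CPM with DMSO.

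*Cxcl12*, on chromosome 6 (117168535 to 117181367, plus strand), encodes a chemokine made mainly by stromal and endothelial cells, and it showed the largest fall of the members. It had 23.8, 28.0 and 41.8 CPM (lowest, median and highest) with adjudin and 27.7, 33.5 and 57.0 CPM with DMSO. Every batch was lower with adjudin, with a difference of -8.28% in batch 6 and -31.2% in batch 1, and the highest adjudin sample, of batch 5, stood below the DMSO samples of batches 4 and 5. Across batches the log2 fold change was -0.31 (SE 0.047, adjusted p = 9.52e-04). Its receptors did not pass: *Cxcr4* had 22.1 ± 3.43 CPM with adjudin and 21.3 ± 2.99 CPM with DMSO, and the scavenger receptor gene *Ackr3* 7.57 ± 1.16 CPM with adjudin and 7.11 ± 1.60 CPM with DMSO. *Dpp4*, a peptidase that cleaves the chemokine, was higher with adjudin (39.9 ± 5.49 CPM, against 34.5 ± 6.88 CPM with DMSO, log2 fold change 0.22, adjusted p = 0.0153).

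*Igfbp4*, on chromosome 11 (99041244 to 99054392, plus strand), encodes a secreted protein that holds insulin-like growth factors away from their receptors. Its level was 107, 126 and 213 CPM (lowest, median and highest) with adjudin and 106, 139 and 249 CPM with DMSO. Batch 4 was highest in both treatments, 6 of 8 batches were lower with adjudin, and batches 1 and 5 differed by under 0.5%. The log2 fold change of -0.12 (SE 0.032, adjusted p = 0.0434) passed, and the call was lost without batch 2, 3, 4, 6 or 8, with an adjusted p of up to 0.151, and when only library size was used for scaling. Of 10 other tested genes of the IGF axis, *Igfbp6*, another binding protein, was lower (6.43 ± 1.35 CPM, against 8.11 ± 2.10 CPM with DMSO, log2 fold change -0.33, adjusted p = 0.0403), and no gene was higher. *Igfbp7*, the most abundant, had 696 ± 91.3 CPM with adjudin and 732 ± 99.7 CPM with DMSO. The receptor genes *Igf1r* (log2 fold change 0.11) and *Insr* (0.12) each missed the threshold with an adjusted p of 0.0508.

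*Maf*, on chromosome 8 (115682942 to 115707794, minus strand), encodes c-MAF, a large MAF transcription factor known from macrophages and lymphocytes among other cells. It had 16.9, 19.5 and 25.4 CPM (lowest, median and highest) with adjudin and 17.4, 24.3 and 34.8 CPM with DMSO. All 8 batches were lower with adjudin, with a difference of -2.91% in batch 7 and -27.9% in batch 1, and every adjudin sample but that of batch 4 stood below 7 of the 8 DMSO samples. The fitted log2 fold change was -0.30 (SE 0.048, adjusted p = 0.00155). The beta cell factor *Mafa* had 87.0 ± 43.2 CPM with adjudin and 79.7 ± 39.2 CPM with DMSO (log2 fold change 0.12, adjusted p = 0.146). Counts per base of *Maf* over *Mafa* were 0.0369, 0.0889 and 0.391 (lowest, median and highest) with adjudin and 0.0427, 0.112 and 0.470 with DMSO. The ratio was lower in 8 of 8 batches, by -0.41 on the log2 scale (SD 0.178 over batches, exact p = 0.00781, the smallest that 8 batches allow, adjusted p = 0.0208).

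**Figure D2:**
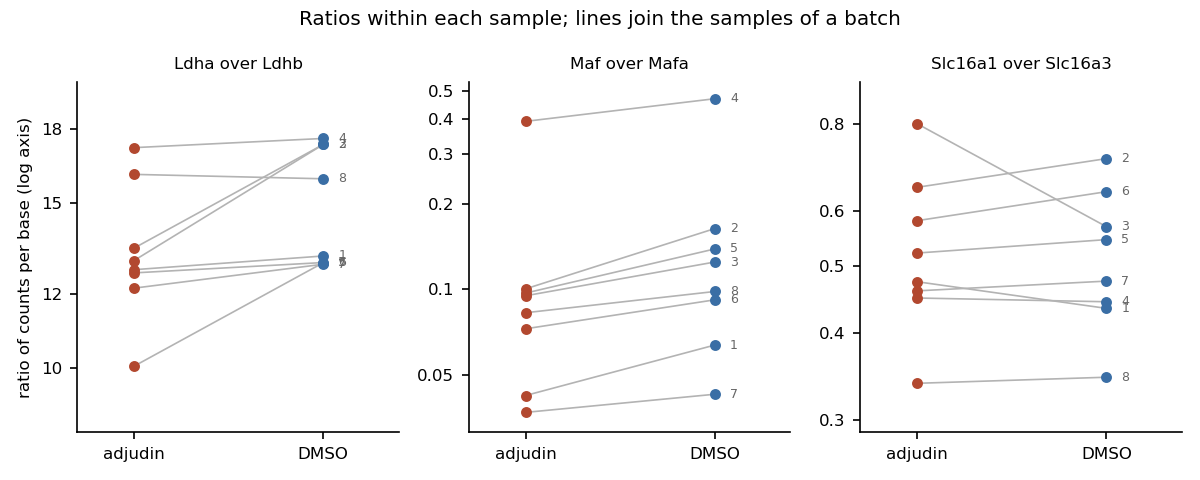
Ratio of counts per base between a member and its counterpart within each sample (vertical log axes), for the 8 adjudin samples (left, red) and the 8 DMSO samples (right, blue), with lines joining the samples of a batch and batch numbers at the right. *Maf* over *Mafa* was lower with adjudin in all 8 batches, and batch 4 lay far above the others in both treatments.

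Over the whole set, the 10 log2 fold changes were all negative, from -0.31 to -0.06, with a median of -0.15. Of all tested genes 48.6% had a negative log2 fold change, and their median was 0.00. Within single batches, 8 to 10 of the 10 members were lower with adjudin, and the median difference of the members lay between -0.24 in batch 8 and -0.10 in batches 6 and 7. *Ldha*, *Acot7*, *Cxcl12* and *Maf* passed with any 1 batch left out (adjusted p at most 0.0284), and *Slc16a1*, *Hk1*, *Hk2* and *Rest* passed in none of these fits. Without the batch term no member passed and 1 gene was called in all, with 590 genes at an unadjusted p under 0.05. 

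**Figure D3:**
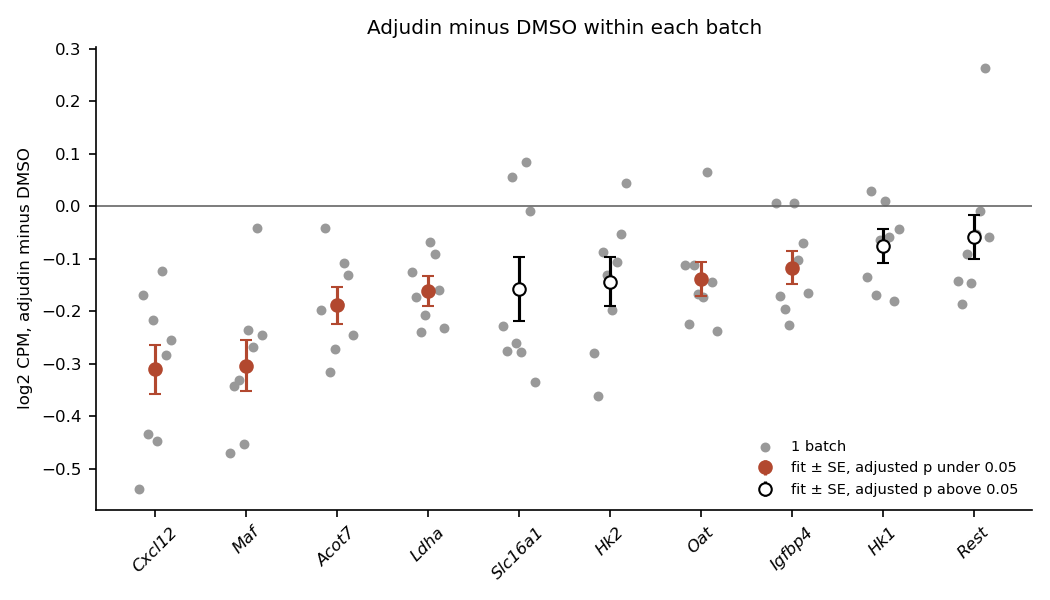
Difference in log2 CPM, adjudin minus DMSO, for each member (horizontal axis, ordered by size). Grey points are single batches, large points the fitted log2 fold change ± SE, filled red where the adjusted p was under 0.05. *Cxcl12* (-0.31) and *Maf* (-0.30) had the largest falls, and the highest single point is batch 7 of *Rest* (0.26).

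Differences between batches outweighed the treatment for every member. The share of the variance of log2 CPM that lay between batches was 53.0% for *Acot7*, the lowest, and 96.5% for *Hk1*, the highest, beside a median of 81.1% over all tested genes. The share between treatments was highest for *Acot7* (38.9%), *Maf* (31.8%), *Ldha* (24.5%) and *Cxcl12* (21.3%), and was 0.674% for *Rest*. Across the 8 batch means the members fell into no single pattern. The highest Pearson r between 2 members were 0.88 for *Ldha* and *Igfbp4*, 0.84 for *Igfbp4* and *Oat*, 0.83 for *Rest* and *Maf*, 0.82 for *Hk1* and *Hk2*, and 0.81 for *Hk1* and *Cxcl12*. The lowest was -0.08 for *Slc16a1* and *Acot7*. *Cxcl12* and *Igfbp4* had r = 0.01 over these 8 points.

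The genes whose batch means were most like those of a member are given as a description over 8 batches. *Igfbp4* was closest to *Olfml3* (r = 0.998), *Gas1* (0.989) and *Gpx7* (0.988), and *Maf* to *Ccbe1* (0.987), *Itga5* (0.979) and *Zfp503* (0.973). *Ldha* was closest to *Olr1* (0.957), *Rras* (0.944) and *Hif1a* (0.943), *Acot7* to *Gtse1* (0.966), *Ass1* (0.965) and *Plod3* (0.965), and *Oat* to *Ak1* (0.984), *Plod2* (0.984) and *Colec12* (0.981). *Rest* was closest to *Fermt2* (0.994), *Tcf12* (0.990) and *Smo* (0.988), and *Cxcl12* to *Chdh* (0.979), *Pacsin2* (0.964) and *Exoc6b* (0.962). *Hk1* was closest to *Utp4* (0.989), *Srgap1* (0.988) and *Git2* (0.986), *Hk2* to *Timp2* (0.978), *Pdpn* (0.973) and *Heatr3* (0.972), and *Slc16a1* to *Frat2* (0.994), *Kif15* (0.972) and *Ulk2* (0.967).

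The levels of the members were then set against those of 20 stromal markers, collagens, pericyte and fibroblast genes that include no member, using their mean log2 CPM as a score. Across the 8 DMSO samples all 10 members correlated positively with it, from r = 0.22 for *Cxcl12* to r = 0.85 for *Igfbp4*. Of the tested genes outside the marker list, 49.9% had a positive r. *Igfbp4* (Spearman rho 0.71, exact permutation p of r = 0.00766), *Rest* (r = 0.85, rho 0.81, exact p = 0.0131), *Maf* (r = 0.84, rho 0.71, exact p = 0.0218) and *Oat* (r = 0.74, rho 0.62, exact p = 0.0313) had an unadjusted p under 0.05. After adjustment none passed over all 16910 genes (adjusted exact permutation p of 0.269 to 0.340 for these 4, and 0.615 to 0.684 for rho), and of all genes 0 passed, by r or by rho, with 2258 and 1134 at an unadjusted p under 0.05. Without batches 4 and 7, the samples farthest from the median score, r was 0.62 for *Igfbp4*, 0.40 for *Rest*, 0.38 for *Oat* and 0.12 for *Maf*. *Hk1*, *Hk2* and *Cxcl12* turned negative. These samples had the highest and the lowest score, and leaving them out narrowed its range, which alone can lower r. How far the relation rested on them was not tested.

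**Figure D4:**
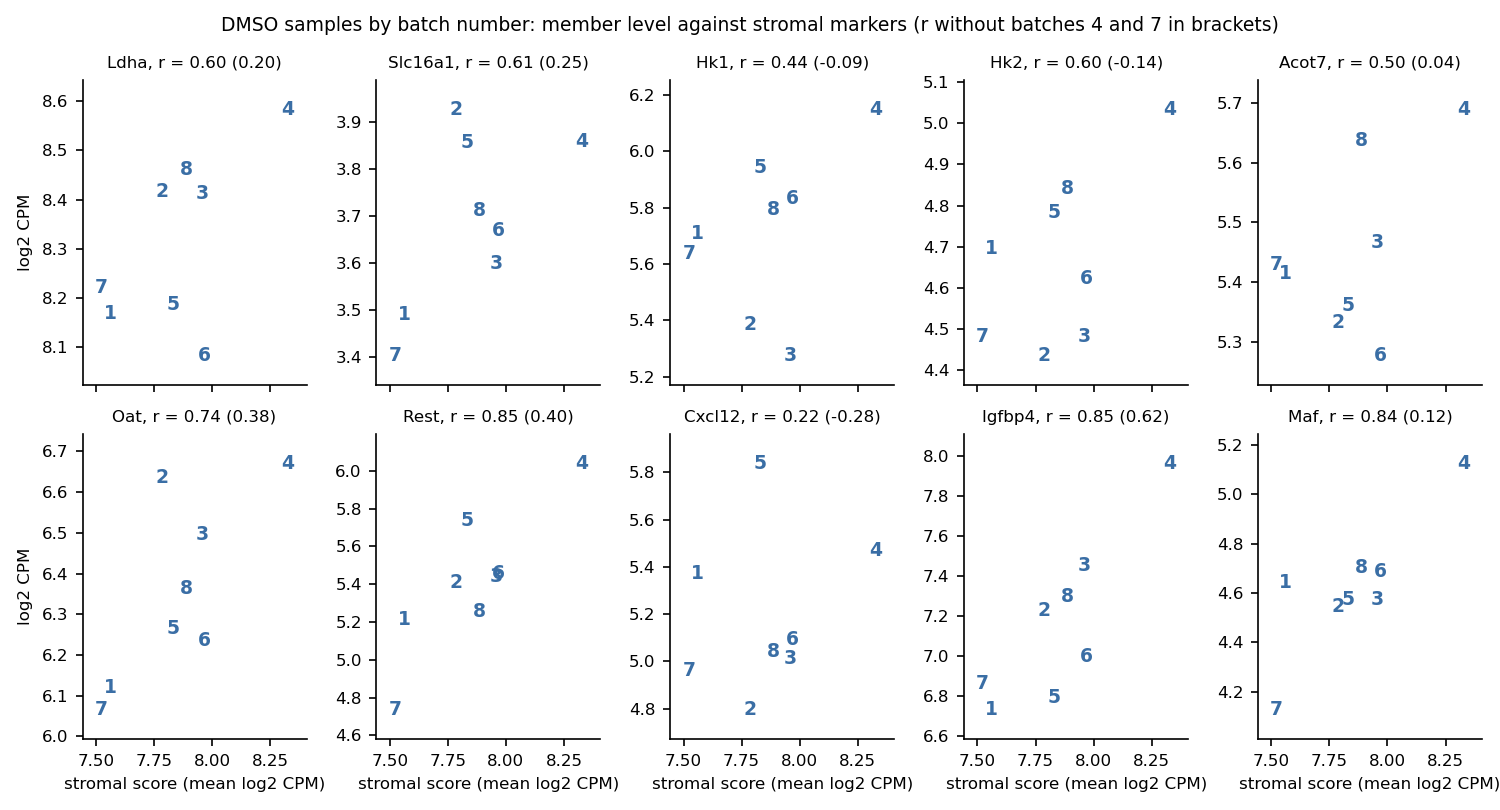
Level of each member (log2 CPM, vertical axes) against the stromal marker score (mean log2 CPM of 20 genes, horizontal axes) in the 8 DMSO samples, each drawn as its batch number. Pearson r stands above each panel with r without batches 4 and 7 in brackets. Batch 4 lies at the upper right of most panels and batch 7 at the lower left, and r for *Maf* is 0.84 with them and 0.12 without.

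In the adjudin samples, which share these batches, the correlation with the stromal score was again positive for all 10 members, and highest for *Rest* (r = 0.93, rho 0.95, exact permutation p = 9.18e-04, adjusted p = 0.0604, and 0.78 without the farthest 2 samples). Without those samples r was -0.35 for *Acot7*, -0.13 for *Ldha* and 0.26 for *Igfbp4* (0.76 with them). It was 0.84 for *Slc16a1* (0.67 with them), 0.64 for *Maf* and 0.47 for *Oat*, and 8 of the 10 members stayed positive. Over the 8 adjudin samples 50.4% of the tested genes outside the marker list had a positive r. Of all tested genes 0.0296% passed with a positive and 0.0296% with a negative correlation there, and no member did. The score of 11 beta cell markers correlated negatively with all 10 members in DMSO samples, most for *Oat* (r = -0.87, rho -0.93, exact permutation p = 0.00191, adjusted p = 0.145, -0.80 without the farthest 2 samples), *Rest* (r = -0.86) and *Slc16a1* (r = -0.79, -0.88 without them). Without the farthest 2 samples 5 of the 10 members had a positive r with the beta cell score: *Maf* (0.74, against -0.76 with them), *Hk1* and *Hk2* (0.34 each), *Cxcl12* (0.10) and *Acot7* (0.08). Stromal and beta cell scores were themselves opposed (r = -0.83, rho -0.55, exact permutation p = 0.0143, adjusted p = 0.107 over 12 relations between scores, -0.27 without batches 4 and 7). Of the tested genes outside the beta cell list, 47.7% had a positive r with the beta cell score. With the endothelial score 8 of 10 members had a positive r in DMSO samples, beside 47.3% of the tested genes outside that list. The highest were *Cxcl12* (0.67), *Rest* (0.66) and *Hk1* (0.64), and without the farthest 2 samples 3 of 10 were positive. With the macrophage score 5 of 10 were positive, beside 50.7%. With the beta cell, macrophage and endothelial scores no member passed, and of all 16910 tested genes 0 passed.

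Markers of other cells moved with adjudin beside the members. All 20 stromal markers had negative log2 fold changes (median -0.11) and 7 passed as lower, among them *Acta2*, smooth muscle actin (258 ± 46.5 CPM with adjudin, against 315 ± 50.6 CPM with DMSO, log2 fold change -0.29), *Thy1* (-0.31), *Postn* (-0.27) and *Col3a1* (-0.19). The most abundant one, *Col1a1*, gave -0.09 (adjusted p = 0.0844). Their summed level ran from 13284 to 25423 CPM with adjudin and from 13737 to 28065 CPM with DMSO, and was lower in 7 of 8 batches. All 10 macrophage markers were negative (median -0.40) and 8 passed as lower, among them the complement genes *C1qb* (-0.48), *C1qc* (-0.44) and *C1qa* (-0.38) and the adaptor gene *Tyrobp* (-0.42), with the most abundant, *Lyz2*, at -0.46. Their summed level was 563 to 821 CPM with adjudin and 589 to 1204 CPM with DMSO, lower in 8 of 8 batches. Across the 8 batches, differences in the macrophage score had r = 0.49 with those of *Maf* (exact permutation p = 0.213). With those of *Cxcl12* r was -0.15 (exact permutation p = 0.733). For this score 8 of the 10 members had a positive r, beside 51.9% of the tested genes outside the marker list. After adjustment 0 of all tested genes passed. Whether stromal cells or macrophages caused the falls of *Maf*, *Cxcl12* and the other members was not tested.

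Of 10 endothelial markers 9 had positive log2 fold changes (median 0.09), unlike the stromal and macrophage markers. Only *Flt1* passed, which was higher with adjudin (77.5 ± 40.4 CPM, against 66.8 ± 30.9 CPM with DMSO, log2 fold change 0.19, adjusted p = 0.0137). Of 11 beta cell markers 10 had positive log2 fold changes (median 0.14) and 4 passed as higher (*Glp1r* 0.24, *G6pc2* 0.16, *Pdx1* 0.16 and *Nkx6-1* 0.14). Positive values were also found for 4 of 5 alpha, 3 of 3 delta and 4 of 7 ductal markers. The most abundant beta cell marker, *Ins2*, gave 0.05 (adjusted p = 0.5). The most abundant endothelial marker, *Plvap*, gave 0.10 (adjusted p = 0.256). No alpha, delta, ductal or acinar marker passed, and the most abundant alpha, delta and ductal ones, *Gcg*, *Sst* and *Spp1*, gave 0.15, 0.13 and 0.12. Of the 8 acinar markers 7 had negative log2 fold changes (median -0.22), from -0.34 for *Amy2b* (adjusted p = 0.164), with only the most abundant, *Ctrb1*, positive at 0.01. Their summed level was 4967 to 10090 CPM with adjudin and 4851 to 11607 CPM with DMSO, lower in 6 of 8 batches, and their part in the members' differences was not tested. The members' differences were then set against the stromal score's differences across the 8 batches. Of 10 correlations 9 were positive, beside 53.4% over the tested genes outside the marker list. No member passed (adjusted exact permutation p = 0.999), and of all 16910 tested genes 0 passed. Among the members *Ldha* alone had an unadjusted p under 0.05 (r = 0.73, rho 0.76, exact permutation p = 0.0453), beside 683 of all tested genes. Its r was 0.15 without batches 5 and 6, and how far it rested on them was not tested.

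Of 20 further disallowed genes, 5 passed as lower and none as higher, 12 had negative and 8 positive log2 fold changes, and the median was -0.04. The genes called were *Igf1*, an insulin-like growth factor (15.3 ± 3.06 CPM with adjudin, against 20.9 ± 3.61 CPM with DMSO, log2 fold change -0.45, adjusted p = 0.00158), *Cd302*, a lectin receptor gene of myeloid cells (-0.28, adjusted p = 0.0217), *Pdgfra*, a receptor of mesenchymal cells (-0.19, adjusted p = 0.0245), *Arhgdib*, a gene of blood cells (-0.29, adjusted p = 0.0422), and *Tgm2*, transglutaminase 2 and the most abundant of the list (-0.19, adjusted p = 0.0461). The number called lower, 5 of 20, lies beside 6 of 10 for the members and 3.07% for all tested genes.

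**Figure D5:**
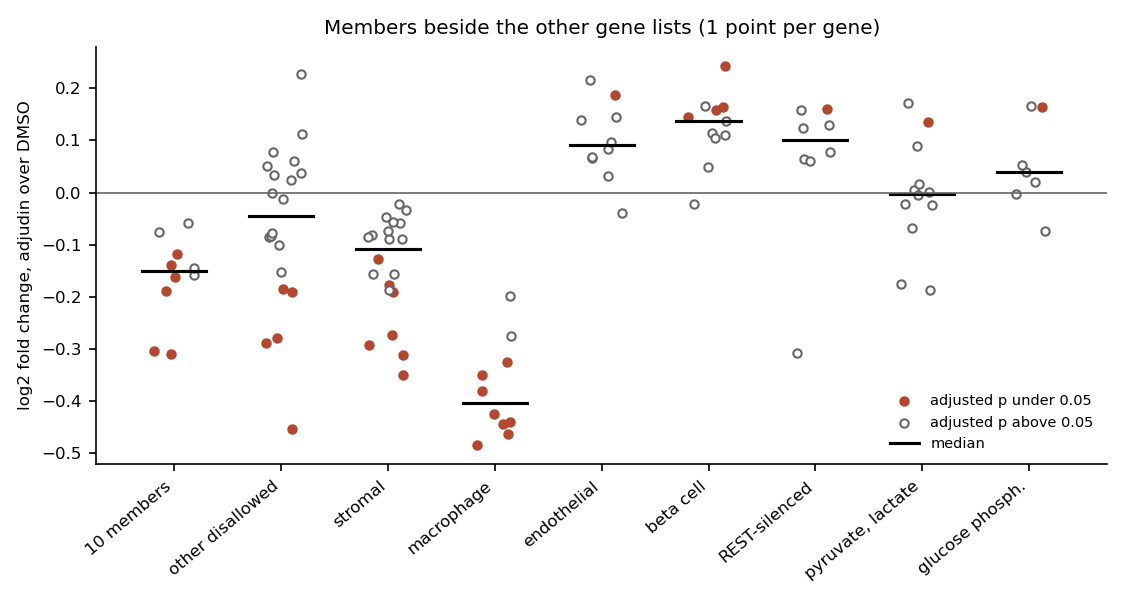
Log2 fold change, adjudin over DMSO, of each gene in 9 lists (1 point per gene, red where the adjusted p was under 0.05, black line at the median). The 10 members (median -0.15) all lie below 0, as do the stromal (-0.11) and macrophage markers (-0.40), while 12 of the 20 other disallowed genes do.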

How the data were processed

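Islet RNA of 16 samples was sequenced after poly(A) selection. The authors aligned the reads to mm10 with HISAT2 2.0.5, used featureCounts 1.5.0-p3 to count reads for each gene, and deposited the counts without normalisation. For the annotation release and the strand setting, nothing was given in the sources used here. Samples were grouped by the treatment in the labels. The deposited counts (24190102 to 34471164 per sample) were analysed in R 4.3.3 with edgeR 4.0.16: filterByExpr left 16910 of 54532 genes, TMM factors were used, and the quasi-likelihood test had batch and treatment as terms, with Benjamini-Hochberg adjustment and a threshold of 0.05. Standard errors were obtained by dividing the size of the log2 fold change by the root of the F statistic. The prior count for log2 CPM was 2.

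The batch numbers come from the labels. Deviations from the treatment means correlated by 0.371 to 0.690 within batches (other pairs had a median of -0.18), and 8 of 8 adjudin samples were closest to the DMSO sample of their batch. The study names DESeq2 and no model formula. Correlations were tested over all 40320 orders of 8 samples and ratios over 256 sign patterns, two-sided. Each sample was a biological sample from 1 to 2 mice, but whether the samples of a batch shared mice is not stated in the sources used here.

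All 10 members are named. From each of 19 further lists the genes that passed were named, up to 4 with the smallest p, and the most abundant one, and for each member the 3 genes with the most similar batch means among genes whose mean log2 CPM was 1 or more. A few genes outside this rule (such as *Ldhb*, *Mafa*, *Slc16a3*, *Ackr3*, *Igf1r*, *Insr* and *Cxcr4*) were added after their values were seen or as counterparts of a member. Members and lists were chosen with earlier results of these data known. Alternatives were DESeq2 1.42.0, limma-voom (limma 3.58.1), other scaling and filters, no batch term and each batch left out. The pipeline was tested on simulated counts. Protein sequences were not compared here, and 1 of the 4 ratios and a few named genes were left out of the text.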

Additional observations from a re-analysis of the deposited data

Results flagged for a closer look

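In 42 groups of 8 values (the level of each member and each ratio with adjudin and with DMSO, and the differences by batch), 6 had a highest or lowest value set apart from the rest by more than Dixon's 95% limit, which chance gives in about 1 of 20 groups. The difference of *Oat* in batch 6 (0.065 on the log2 scale) lay above those of the other 7 batches, as did that of *Rest* in batch 7 (0.26). *Igfbp4* in the adjudin sample of batch 4 (213 CPM) lay above the other adjudin samples. *Maf* over *Mafa* in batch 4 was 0.391 in the adjudin sample and 0.470 in the DMSO sample, each above the other 7 of its treatment. *Slc16a1* over *Slc16a3* differed by 0.49 on the log2 scale in batch 3, above the other batches.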

How the results depend on the processing

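The 10 log2 fold changes kept their sign under all alternatives that were run. Without the replicate block of batch, 0 members and 1 gene in all passed (590 at an unadjusted p under 0.05), and the cause was not tested. With no filter on low counts 1577 genes passed, against 886. With 1 batch left out, 412 to 1071 genes and 4 to 6 members passed: *Oat* and *Igfbp4* were the members lost. With batches 4 and 7 both left out, chosen after the data were seen, 363 genes and 4 members passed, the same 4 that passed with any batch left out. DESeq2, limma-voom, both other scaling methods and the stricter filter called the same 6 members (882 to 1054 genes), and scaling by library size alone lost *Igfbp4*. Which part of these changes comes from fewer samples was not tested. With 8 samples the smallest exact permutation p of a correlation is 4.96e-05 before adjustment over 16910 genes, and no relation of a member reached the threshold. *Slc16a1*, with 258 to 476 counts per sample, had the least depth of the members.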
